A study of Mus musculus with 9 samples.

Results

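The knockdown of Yap1 in undifferentiated mouse embryonic stem (ES) cells was described from 1 knockdown library (Yap1_KD) and the 1 control library that the labels pair with it (KD_control), out of 9 libraries in the series. The members are the genes compared between these 2 libraries. The table lists 18504 genes besides blank rows and rows with a symbol turned into a date. Of these, 168 small RNA rows (symbols starting Mir, Snor, Rnu or Scarna) were left out, and 11755 of the remaining 18336 reached 1 FPKM or more in either library. FPKM is the number of fragments scaled by transcript length and library size. Ratios are given as log2(FPKM + 1) in the knockdown minus the control unless a ratio of FPKM is named, which understates the difference of low genes.

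All 9 libraries are polyadenylated RNA of J1, an ES cell line of the mouse strain 129S4/SvJae, at passages 5 to 7. By their labels, the libraries come from cells with Yap1 knocked down, knocked out or overexpressed, each state sequenced beside a control. Beside the knockdown pair, the text uses a control named ESC with 2 libraries labelled as Yap1 knockouts (Yap1_KO1 and Yap1_KO2), a Yap1 overexpression library (Yap1_OE) with its control BirA, and a pair of differentiated ES cells with and without the knockdown (dESC_Yap1_KD and dESC_control). The knockdown reagent, the treatment of KD_control and the way of differentiation were not given in the sources used here. Every group other than the knockout label has 1 library, so a difference between the knockdown and its control has no replicate check and no p-value. Nothing says that the libraries labelled Yap1_KO1 and Yap1_KO2 are separate clones or cultures, and the spread between these 2 samples is possibly a technical one. The p-values of the interaction test below rest on that spread alone. Those of the joint fit rest on it and on the difference of effects between the knockdown arm and the knockout-labelled arm.

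YAP, the protein of Yap1, is a transcriptional coactivator. It has no DNA-binding domain of its own and reaches its target genes through the TEAD factors. In the Hippo pathway the kinases Mst1 and Mst2 activate the kinases Lats1 and Lats2, which phosphorylate YAP and keep it in the cytoplasm. Angiomotins and the Kibra family of scaffold proteins restrain YAP and are themselves known YAP targets, which makes a feedback loop. In ES cells YAP has been studied for self-renewal and for the exit from pluripotency.

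TEAD factors bind a short sequence with the core GGAATG, or CATTCC on the other strand. The 250 bases before the annotated start are shown for 3 genes that were lower in the knockdown and hold that core, since they are the matricellular gene Cyr61 and 2 genes of the Hippo feedback loop. The sequences are from RefSeq (build GRCm38.p6, where Cyr61 is named Ccn1), written 5′ to 3′ on the strand of the gene, with the core in capitals.
Cyr61, chr3:145649986-145650235, minus strand: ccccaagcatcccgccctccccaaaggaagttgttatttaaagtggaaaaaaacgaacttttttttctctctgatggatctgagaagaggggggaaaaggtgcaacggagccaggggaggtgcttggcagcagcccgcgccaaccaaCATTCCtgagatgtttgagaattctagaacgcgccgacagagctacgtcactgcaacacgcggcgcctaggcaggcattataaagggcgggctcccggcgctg
Amotl2, chr9:102717554-102717803, plus strand: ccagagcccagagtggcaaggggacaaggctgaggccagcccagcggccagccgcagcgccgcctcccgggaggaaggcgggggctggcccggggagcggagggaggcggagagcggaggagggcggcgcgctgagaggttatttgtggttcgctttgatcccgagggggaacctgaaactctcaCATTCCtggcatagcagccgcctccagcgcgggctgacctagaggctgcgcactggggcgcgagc
Wwc2, chr8:47990545-47990794, minus strand: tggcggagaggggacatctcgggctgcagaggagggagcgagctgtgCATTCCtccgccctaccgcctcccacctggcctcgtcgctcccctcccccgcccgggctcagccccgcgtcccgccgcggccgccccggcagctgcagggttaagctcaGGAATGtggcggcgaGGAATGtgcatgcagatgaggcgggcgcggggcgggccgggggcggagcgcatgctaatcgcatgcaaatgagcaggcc
The core begins 103 bases before the start of Cyr61, 65 before that of Amotl2, and 203, 94 and 79 before that of Wwc2. Of all 32851 RefSeq promoters of this length, 12.6% hold the core on either strand and 1.02% hold it at least 2 times. Among the genes at least 2-fold lower in the knockdown besides Yap1, 19 of 28 had a RefSeq promoter, and 7 of their 26 promoters held the core. The 7 belong to Amotl2, Cyr61, Wwc2, Dnmt3l, Kat2b, Ms4a4d and Tmem59l. That of Kat2b holds the core 3 times, as that of Wwc2 does, beginning 89, 84 and 26 bases before the start. Among the genes at least 2-fold higher, 3 of 23 promoters of 19 matched genes held it. The AP-1 core TGANTCA (N, any base) stood in 4 of the 26, in 3 of the 23 and in 6.75% of all promoters. A match describes these letters in this window only.

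Depth estimated from the steps between low FPKM values was 22.8 M (mega) fragments in KD_control and 18.4 M in the knockdown, within a range of 9.38 to 22.8 M over the 9 libraries. A transcript of 2 kb at 1 FPKM stood for about 45.6 and 36.7 fragments. All 6 ES cell markers (Pou5f1, Nanog, Sox2, Zfp42, Esrrb and Dppa5a) were above 100 FPKM in both libraries, the lowest at 113 in the control and 122 in the knockdown. Of 8 feeder fibroblast markers 4 (Col3a1, Postn, Lum and Dcn) were listed at 0 in both, and the summed level was 23.5 FPKM in the control and 26.6 in the knockdown, nearly all of it Thy1. The 12 markers of differentiated derivatives summed to 27.0 FPKM in the control and 19.8 in the knockdown, most of it Krt18; the part of such cells in the results was not tested. In bulk RNA, fewer cells of a type and less RNA per cell cannot be told apart.

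With a pseudocount of 1, few genes differed by 2-fold or more between the knockdown and its control. The lowest log2 ratio was that of Yap1 (-2.79), and among the other genes at least 2-fold lower were the YAP targets Cyr61 and Amotl2, the methylation cofactor Dnmt3l and the imprinted genes Peg10 and Grb10. Genes at least 2-fold higher included the hormone precursor Trh and genes of the nervous system (Vax2, Zic2, Grin1 and Stmn3). In all, 24 genes were at least 2-fold higher, which is 0.204% of the 11755, and 29 were at least 2-fold lower (0.247%), Yap1 among them; 4 of the 53 were listed at 0 in 1 of the libraries. The counts depend on the pseudocount: they were 96 and 77 with 0.1 and 6 and 9 with 5 in place of 1. Most genes lay close to the diagonal in the plot of one library against the other: 96.4% were within 1.5-fold and the median log2 ratio was 0.0091. The 2-fold genes were spread over the range of expression, with 6 higher and 10 lower among 3331 genes at 1 to 5 FPKM and 3 higher and 2 lower among 896 genes at 100 FPKM or more. Just outside the 2-fold line lay the transglutaminase Tgm1 (-0.99, from 16.1 to 7.63 FPKM) and Siglec5 (from 1.04 to 3.07 FPKM). Just inside lay Wwc2 (from 13.01 to 5.99 FPKM) and Tuba3b (from 0.863 to 2.75).

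**Figure D1:**
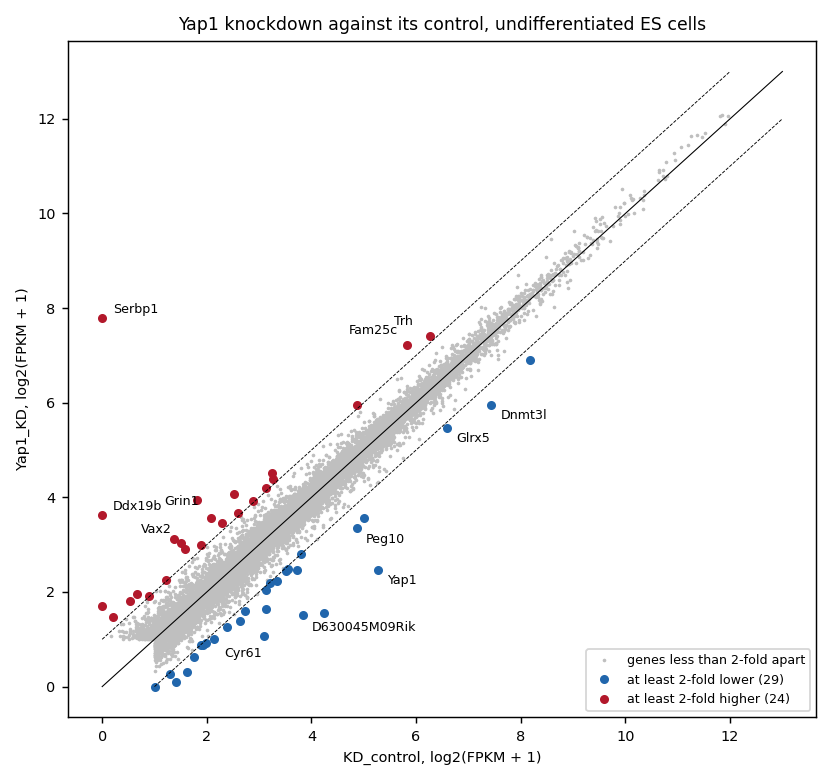
Each point is 1 of 11755 genes, with log2(FPKM + 1) in KD_control on the horizontal axis and in Yap1_KD on the vertical axis; the solid line marks equal values and the dashed lines a 2-fold difference. Blue points are the 29 genes at least 2-fold lower and red points the 24 at least 2-fold higher, with Serbp1, Ddx19b and 1700124L16Rik at the left edge because they are listed at 0 in the control.

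Differences between single libraries of this series were often larger. By the same rule 156 genes (1.37%) differed between the controls BirA and ESC, 130 (1.12%) between KD_control and BirA, and 510 (4.36%) between KD_control and ESC. The libraries labelled Yap1_KO1 and Yap1_KO2 differed from each other in 71 genes (0.634%). The knockdown and its control, at 53 genes (0.451%), were thus closer to each other than any of these pairs. A gene's value in the knockdown was therefore set beside all 3 undifferentiated controls (KD_control, ESC and BirA). Of the 28 lower genes besides Yap1, 24 were in the knockdown below all 3 controls, where 39.4% of all genes were below both ESC and BirA. Of the 24 higher genes, 20 were above all 3 controls, where 40.7% of all genes were above both ESC and BirA. The side of KD_control is fixed by the 2-fold rule. That rule chose the genes by the same knockdown value that is set beside ESC and BirA. The counts are therefore a description, and the shares of all genes are no fair measure for them.

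Yap1 stood at 37.4 FPKM in the control and 4.55 in the knockdown, 12.2% of the control. The 95% interval from fragment counts was 10.8% to 13.6%. This interval and those below are exact Clopper-Pearson intervals on approximate fragment numbers, and they cover counting error only. In the other undifferentiated libraries Yap1 was at 65.4 FPKM in ESC and 46.7 in BirA, 57.3 in Yap1_KO1, 27.6 in Yap1_KO2 and 139 in Yap1_OE. The knockdown value was the lowest of all 9 libraries, and the libraries labelled as knockouts kept more Yap1 RNA than the knockdown did. In differentiated cells Yap1 was at 78.0 FPKM in the control and 12.5 under the knockdown.

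The partners of YAP differed little. Wwtr1 (TAZ), the paralog of YAP, stood at 9.18 FPKM in the control and 9.29 in the knockdown. Among the TEAD factors, Tead2 was the most abundant, at 64.4 FPKM in the control and 74.2 in the knockdown. Tead1 was at 9.41 and 8.07 FPKM, and Tead4 at 8.04 and 10.3. Of the 7 measured members of the YAP, TAZ, TEAD and VGLL list, Yap1 was the only one at least 1.5-fold apart.

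Among YAP/TEAD target genes, the secreted matricellular proteins Cyr61 and Ctgf and the angiomotin Amotl2 were lower in the knockdown. Cyr61, whose promoter is printed above, stood at 3.38 FPKM in the control and 0.999 in the knockdown, 29.5% of the control (interval 20.1% to 42.6%). It was at 5.88 FPKM in ESC, 0.670 in Yap1_KO1, 0.571 in Yap1_KO2, 3.56 in BirA, 32.7 in Yap1_OE, 231 in dESC_control and 61.1 in dESC_Yap1_KD. The knockdown was below every undifferentiated control, above the 2 libraries labelled as knockouts, and far below Yap1_OE. Ctgf stood at 2.73 FPKM in the control and 1.11 in the knockdown, 40.8% of the control (interval 28.9% to 56.7%). It was at 7.62 FPKM in ESC, 1.30 in Yap1_KO1, 0.846 in Yap1_KO2, 5.74 in BirA, 29.0 in Yap1_OE, 47.4 in dESC_control and 42.1 in dESC_Yap1_KD. Its value lay below those of all 3 undifferentiated controls, with the libraries labelled as knockouts at like levels.

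Of 23 signature genes 17 were measured at 1 FPKM or more, with 2 of them at least 2-fold lower (Cyr61 and Amotl2) and 0 higher by that factor. At 1.5-fold the counts were 4 lower and 0 higher, where 1.71% of all genes were lower and 1.86% higher. The other 2 were Ctgf and Ptpn14, a phosphatase that binds YAP (3.79 to 2.11 FPKM). Igfbp3, a binding protein of insulin-like growth factors, was at 5.08 and 3.23 FPKM. Tissue factor F3 was at 4.09 and 3.02, and Fjx1 at 3.11 and 2.27. Not all signature genes lay below the control. The stress gene Gadd45b was at 23.3 FPKM in the control and 35.3 in the knockdown. The ectonucleotidase Nt5e was at 0.608 and 1.29, and the receptor kinase Axl at 0.953 and 1.67. Birc5 (survivin), the most abundant member, was at 165 and 188. Lats2, a Hippo kinase that is also a target, was below the minimum at 0.808 and 0.365 FPKM, and Ankrd1 and Foxf2 were listed at 0 in both. The median log2 ratio of the 17 was -0.12, beside 0.0091 over all genes.

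The regulators of YAP were lower more often than higher. Amotl2 stood at 7.78 FPKM in the control and 3.12 in the knockdown, 40.1% of the control (interval 34.6% to 46.4%). It was at 18.1 FPKM in ESC, 4.57 in Yap1_KO1, 1.27 in Yap1_KO2, 12.3 in BirA, 42.7 in Yap1_OE, 179 in dESC_control and 51.7 in dESC_Yap1_KD. The knockdown library lay below all 3 undifferentiated controls and the library labelled Yap1_KO2 lower still. Wwc2, a scaffold of the Kibra family that binds the Lats kinases, stood at 13.01 FPKM in the control and 5.99 in the knockdown, 46.1% of the control (interval 42.7% to 49.6%). It was at 17.1 FPKM in ESC, 5.15 in Yap1_KO1, 2.77 in Yap1_KO2, 15.8 in BirA, 25.6 in Yap1_OE, 40.2 in dESC_control and 12.2 in dESC_Yap1_KD. All 3 undifferentiated controls were between 13.01 and 17.1 FPKM, and the 3 libraries with a knockdown or knockout label between 2.77 and 5.99. Ajuba, a LIM protein that binds Lats, was at 32.9 and 20.2 FPKM. The kinase Stk3 (Mst2) was at 5.47 and 3.15. Unlike Amotl2, Wwc2, Ajuba and Ptpn14, Stk3 was above ESC (6.33 FPKM) in Yap1_KO1 (9.17) and Yap1_KO2 (7.72). Of 21 measured Hippo kinases and upstream regulators, 5 were at least 1.5-fold lower (these 4 and Ptpn14) and 0 at least 1.5-fold higher. Below the control stood 17 of 21 (81.0%), where 48.5% of all genes did, and the median log2 ratio was -0.17. The kinases Lats1 (3.13 and 3.24 FPKM) and Stk4 (23.3 and 21.8) were close to the control, and Nf2 (Merlin) was at 52.8 and 63.0. Wwc2, Amotl2, Cyr61 and Ctgf were chosen as known targets or by their value in this comparison, so their direction here is a description.

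Outside the pathway, a noncoding gene and a methylation cofactor were among the genes at least 2-fold lower. D630045M09Rik, a long noncoding RNA in RefSeq, stood at 13.3 FPKM in the control and 1.85 in the knockdown, 13.9% of the control (interval 9.88% to 18.9%). It was at 17.3 FPKM in ESC, 0.185 in Yap1_KO1, 0.0676 in Yap1_KO2, 12.98 in BirA, 23.6 in Yap1_OE, 6.95 in dESC_control and 0.973 in dESC_Yap1_KD. The level was near 0 in the libraries labelled as knockouts and was highest in Yap1_OE. Dnmt3l, the inactive partner that stimulates the de novo DNA methyltransferases, stood at 172 FPKM in the control and 61.0 in the knockdown, 35.4% of the control (interval 33.6% to 37.4%). It was at 182 FPKM in ESC, 81.5 in Yap1_KO1, 81.9 in Yap1_KO2, 247 in BirA, 315 in Yap1_OE, 132 in dESC_control and 28.8 in dESC_Yap1_KD. The knockdown and both libraries labelled as knockouts lay at 61.0 to 81.9 FPKM, and the 3 undifferentiated controls at 172 to 247. Of its enzymes, Dnmt3b was at 31.1 FPKM in the control and 19.3 in the knockdown, and Dnmt3a at 17.9 and 14.3. The maintenance methyltransferase Dnmt1 (78.7 and 86.6 FPKM), its partner Uhrf1 (116 and 131) and the demethylating enzymes Tet1 (14.9 and 15.1) and Tet2 (17.0 and 19.2) were all within 1.5-fold.

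Imprinted genes, which are expressed from 1 parental allele, included 2 that were at least 2-fold lower. Peg10, a retrotransposon-derived gene of the placenta, stood at 28.2 FPKM in the control and 9.14 in the knockdown, 32.4% of the control (interval 30.3% to 34.6%). It was at 62.2 FPKM in ESC, 23.1 in Yap1_KO1, 25.9 in Yap1_KO2, 32.6 in BirA, 126 in Yap1_OE, 429 in dESC_control and 213 in dESC_Yap1_KD. The knockdown had the lowest level of the 9 libraries. Grb10, an adaptor that restrains insulin and growth factor receptors, stood at 31.0 FPKM in the control and 10.8 in the knockdown, 34.8% of the control (interval 32.4% to 37.4%). It was at 32.0 FPKM in ESC, 45.3 in Yap1_KO1, 21.1 in Yap1_KO2, 25.6 in BirA, 52.3 in Yap1_OE, 88.7 in dESC_control and 49.3 in dESC_Yap1_KD. Unlike Peg10, it was above the ESC control in Yap1_KO1 and below it in Yap1_KO2. Mest was at 17.5 and 9.65 FPKM, the growth-restraining noncoding RNA H19 at 3.39 and 1.75, and the cell cycle inhibitor Cdkn1c at 12.2 and 7.37. Of 18 measured imprinted genes, 5 were at least 1.5-fold lower (2 of them 2-fold) and 0 at least 1.5-fold higher, beside 1.71% and 1.86% of all genes. This list was chosen with earlier results of these data known, so the count is a description. The median was -0.14. Sgce, the neighbour of Peg10, was at 3.54 and 3.14 FPKM, and Meg3 at 28.3 and 27.6.

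Some genes of the cytoskeleton were at least 2-fold lower, while the tubulins Tuba3a and Tuba3b and the microtubule regulator Stmn3, described below, were at least 2-fold higher. Myl9, a regulatory light chain of myosin II, stood at 2.06 FPKM in the control and 0.237 in the knockdown, 11.5% of the control. Its interval was wide, 3.65% to 29.1%, since about 5 fragments stood behind the knockdown value. It was at 1.81 FPKM in ESC, 0.232 in Yap1_KO1, 0.424 in Yap1_KO2, 1.54 in BirA, 7.27 in Yap1_OE, 64.6 in dESC_control and 18.7 in dESC_Yap1_KD. The knockdown and both libraries labelled as knockouts lay under 0.5 FPKM and the 3 undifferentiated controls above 1.5. Capn2, a calcium-dependent protease of the cytoskeleton, stood at 5.23 FPKM in the control and 1.61 in the knockdown, 30.7% of the control (interval 24.3% to 38.5%). It was at 7.91 FPKM in ESC, 3.14 in Yap1_KO1, 3.99 in Yap1_KO2, 5.30 in BirA, 13.1 in Yap1_OE, 72.4 in dESC_control and 15.1 in dESC_Yap1_KD. Map6, a protein that stabilizes microtubules, stood at 7.80 FPKM in the control and 2.09 in the knockdown, 26.9% of the control (interval 22.1% to 32.5%). It was at 6.19 FPKM in ESC, 2.64 in Yap1_KO1, 2.01 in Yap1_KO2, 4.90 in BirA, 4.52 in Yap1_OE, 5.75 in dESC_control and 2.04 in dESC_Yap1_KD. Among the undifferentiated libraries, the 3 with a knockdown or knockout label were the lowest for Capn2 and for Map6, and Map6 alone of this group was not higher in Yap1_OE.

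Of 16 measured genes of the actin cytoskeleton and SRF list, 14 were below the control (87.5%, beside 48.5% of all genes), 1 of them at least 2-fold (Myl9). The calponins Cnn1 (2.16 and 0.964 FPKM) and Cnn2 (31.0 and 21.2), the actin crosslinker Flna (65.6 and 46.4) and tropomyosin Tpm2 (13.1 and 9.31) were the next lowest. Beta-actin (Actb) was at 1288 and 1099. The median of -0.26 was the lowest of the lists with 5 or more measured members. Tmsb15b2, of the actin-binding thymosin family, was at 12.2 and 4.52 FPKM, and its value is uncertain because near-identical copies exist.

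The remaining lower genes had varied functions. Glrx5, a mitochondrial glutaredoxin needed for iron-sulfur clusters, stood at 95.3 FPKM in the control and 43.4 in the knockdown, 45.5% of the control with a narrow interval (43.4% to 47.7%). It was at 102 FPKM in ESC, 75.5 in Yap1_KO1, 72.6 in Yap1_KO2, 130.5 in BirA, 106 in Yap1_OE, 110.2 in dESC_control and 70.7 in dESC_Yap1_KD. Its level was the lowest of the 9 libraries. Id2, which blocks helix-loop-helix transcription factors, was at 9.17 FPKM in the control and 3.71 in the knockdown, beside 6.85 FPKM in ESC and 10.6 in BirA. Esx1, a homeobox gene of the placenta, was at 5.65 and 2.02 FPKM, beside 3.37 FPKM in ESC and 3.60 in BirA, and 3.72 and 3.36 in Yap1_KO1 and Yap1_KO2. The acetyltransferase Kat2b was at 8.23 and 3.56 FPKM, and at 19.09 and 17.4 FPKM in the libraries labelled Yap1_KO1 and Yap1_KO2, above the 11.2 of ESC. Rims4, of a presynaptic family, was at 2.82 and 0.833 FPKM.

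Among the less characterised lower genes, 2200002D01Rik was at 4.20 and 1.39 FPKM, Fam13c at 2.40 and 0.552, Arl14epl at 10.8 and 4.64, and Aard at 10.4 and 4.42. Tmem59l (2.95 and 0.893 FPKM), Tceal5 (2.69 and 0.836) and Ms4a4d (1.47 and 0.207) were low in both libraries. The other 5 are uncertain. Gm6644 (17.9 and 1.94 FPKM) and Gm12669 (7.54 and 1.10) are pseudogenes in RefSeq, Raet1c (1.67 and 0.0738) has near-identical copies, and Pla2g10os, antisense to another gene, was at 1.01 FPKM in the control and listed at 0 in the knockdown. AF357399 (288 and 119 FPKM) is a small nucleolar RNA by its RefSeq biotype that the symbol rule did not remove, and it was listed at 0 in ESC, BirA, Yap1_KO2 and dESC_Yap1_KD.

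**Figure D2:**
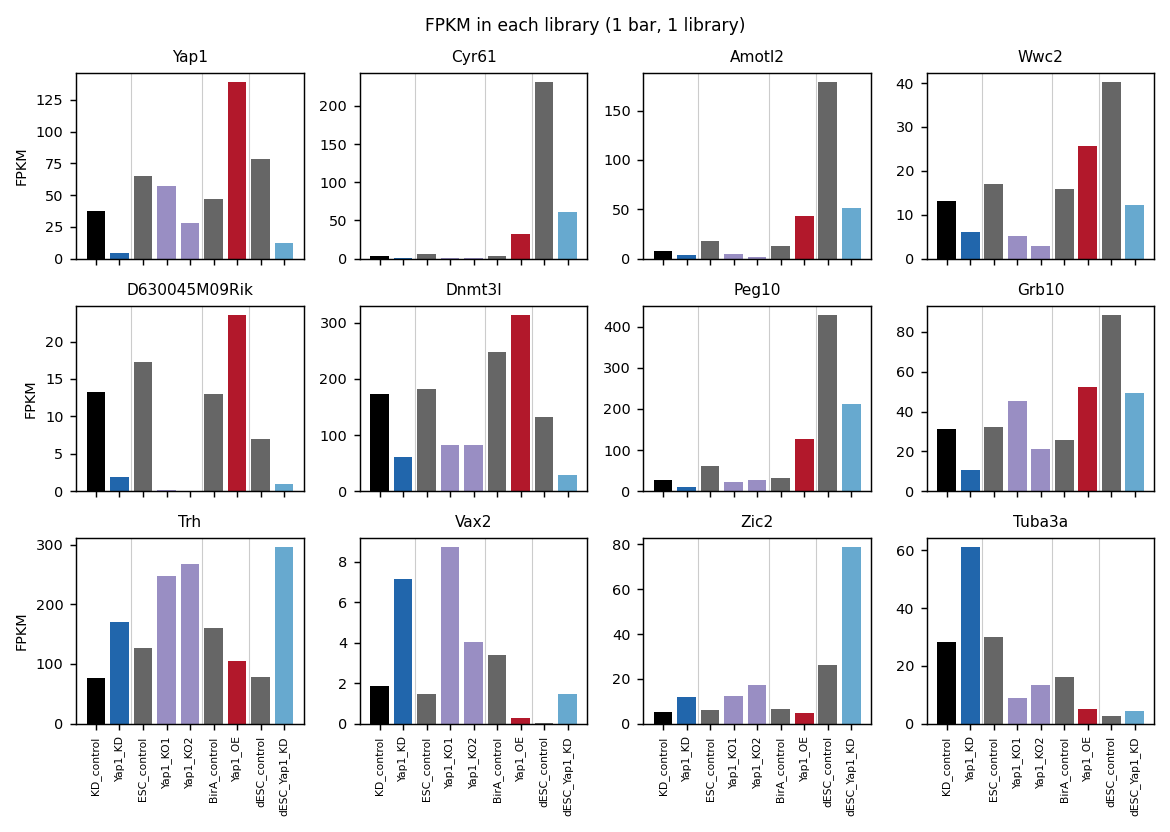
FPKM on a linear axis from 0 for 12 genes (1 panel each) in the 9 libraries (1 bar each), with thin lines between the knockdown pair, the ESC arm, the BirA pair and the differentiated pair. Yap1 in the knockdown is at 4.55 FPKM beside 37.4 in its control, and Tuba3a is higher in the knockdown (61.0 FPKM) and lower in the libraries labelled as knockouts (8.83 and 13.5) than in their controls.

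Several of the higher genes are known from the nervous system. Trh, the precursor of thyrotropin-releasing hormone, was the most abundant of them, at 76.4 FPKM in the control and 170.2 in the knockdown, a 2.23-fold ratio (interval 2.12 to 2.34). It was at 126 FPKM in ESC, 247 in Yap1_KO1, 267 in Yap1_KO2, 160.2 in BirA, 104 in Yap1_OE, 77.5 in dESC_control and 296 in dESC_Yap1_KD. KD_control had the lowest level of all 9 libraries, and the knockdown lay just above BirA and below both libraries labelled as knockouts. Vax2, a homeobox factor that patterns the ventral eye, stood at 1.84 FPKM in the control and 7.15 in the knockdown, a 3.89-fold ratio (interval 2.83 to 5.42). It was at 1.48 FPKM in ESC, 8.73 in Yap1_KO1, 4.06 in Yap1_KO2, 3.38 in BirA, 0.292 in Yap1_OE, 0.0474 in dESC_control and 1.46 in dESC_Yap1_KD. The 3 libraries with a knockdown or knockout label were the highest, and Yap1_OE the lowest of the undifferentiated libraries. Its antisense neighbour Vax2os was at 2.72 and 6.92 FPKM, and since no source used here gives the strandedness, reads of this pair cannot be told apart.

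Zic2, a zinc finger factor of the forebrain and the epiblast, stood at 5.05 FPKM in the control and 11.8 in the knockdown, a 2.34-fold ratio (interval 2.02 to 2.71). It was at 5.90 FPKM in ESC, 12.2 in Yap1_KO1, 17.2 in Yap1_KO2, 6.63 in BirA, 4.64 in Yap1_OE, 26.1 in dESC_control and 78.8 in dESC_Yap1_KD. Both libraries labelled as knockouts and the knockdown were above the 3 undifferentiated controls. Stmn3, a microtubule-destabilizing protein of neurons, stood at 7.80 FPKM in the control and 17.4 in the knockdown, a 2.22-fold ratio (interval 1.87 to 2.65). It was at 15.4 FPKM in ESC, 26.8 in Yap1_KO1, 35.0 in Yap1_KO2, 11.4 in BirA, 5.48 in Yap1_OE, 6.49 in dESC_control and 20.7 in dESC_Yap1_KD. The knockdown was little above ESC, and the KD_control was below both other undifferentiated controls. Grin1, the shared subunit of NMDA glutamate receptors, stood at 3.25 FPKM in the control and 10.8 in the knockdown, a 3.33-fold ratio (interval 2.90 to 3.82). It was at 1.52 FPKM in ESC, 3.43 in Yap1_KO1, 6.75 in Yap1_KO2, 2.90 in BirA, 0.270 in Yap1_OE, 0.118 in dESC_control and 0.221 in dESC_Yap1_KD. The knockdown had the highest Grin1 level of the 9 libraries and Yap1_OE the lowest among the undifferentiated ones.

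Members of the neuroectoderm list went both ways, 4 above the control and 3 below. Its median log2 ratio of 0.28 was the highest of the lists with 5 or more measured members. Of 16 genes 7 were measured, and 3 were at least 2-fold higher (Vax2, Zic2 and Grin1), 0 at least 1.5-fold lower. These 3 are in the list because they were known to differ here, so the count and the median support nothing. The neural tubulin Tubb3 was at 39.7 and 36.1 FPKM, Zic5 at 4.83 and 4.13, and Nes (nestin) at 1.15 and 1.61. The early neural factors Sox1 (0.536 and 0.353 FPKM) and Pax6 (0.320 and 0.198) were under 1 FPKM in both libraries.

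Other higher genes included Dppa3 (Stella), a germline and naive-state factor that protects DNA methylation in the early embryo. It stood at 3.91 FPKM in the control and 9.96 in the knockdown, a 2.55-fold ratio (interval 1.92 to 3.41). It was at 5.50 FPKM in ESC, 0.667 in Yap1_KO1, 3.90 in Yap1_KO2, 4.95 in BirA, 6.65 in Yap1_OE, 0.558 in dESC_control and 1.75 in dESC_Yap1_KD. Unlike Zic2, Dppa3 was lower in Yap1_KO1 than in ESC. Fam25c stood at 55.5 FPKM in the control and 147 in the knockdown (2.66-fold), beside 65.2 FPKM in ESC and 83.4 in BirA and 19.8 in Yap1_OE. The peptide transporter Slc15a1 was at 6.33 and 14.3 FPKM, the glutathione peroxidase Gpx2 at 8.43 and 21.8, and Fam178b at 8.58 and 19.9. The metallothionein Mt4 was at 1.60 and 7.66 FPKM, the neuropeptide precursor Cort at 0.578 and 2.87, and the surface antigen Ly6a at 0.448 and 2.50.

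The last 10 of the 24 higher genes have limits of their own. Tuba3a (28.3 and 61.0 FPKM) and Tuba3b (0.863 and 2.75) are near-identical tubulin genes. Rnaset2b (0.149 and 1.79) and the histone gene Hist1h4c (2.003 and 6.52) have close copies. Both were lower in the knockdown than in ESC and BirA, where Rnaset2b was at 1.80 and 7.01 FPKM and Hist1h4c at 9.85 and 7.68. Gm9112 was at 4.71 and 15.9 FPKM, and the noncoding genes Gm21283 at 2.50 and 14.4 and Peril at 1.33 and 3.75. Serbp1, Ddx19b and 1700124L16Rik were listed at 0 in the control and at 220.1, 11.3 and 2.25 FPKM in the knockdown. Serbp1 was also listed at 0 in BirA, dESC_control and dESC_Yap1_KD and was at 289 to 336 FPKM in the remaining libraries, and a 0 in such a table can be a failed estimate.

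Genes of the germline gave 4 of 15 measured members at least 1.5-fold higher and 0 lower by that factor, beside 1.86% and 1.71% of all genes. They were Dppa3, the RNA-binding factor Dazl (4.85 and 9.16 FPKM), the meiotic protein Hormad1 (1.996 and 4.48) and the mitochondrial carrier Slc25a31 (2.27 and 4.23). Ddx4 (Vasa) was at 9.27 and 6.29 FPKM and the synaptonemal protein Sycp3 at 14.1 and 13.6. The median of the 15 was 0.16. Since this list too was chosen with earlier results of these data known, its count is a description.

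The 2-fold genes were then read in comparisons that share no library with the knockdown pair. Of the 28 genes at least 2-fold lower besides Yap1, 12 were at least 1.5-fold below ESC in both libraries labelled as knockouts, where 3.11% of all 11755 genes were. The other way, 1 of the 28 (Kat2b) was at least 1.5-fold above ESC in both, beside 2.36% of all genes. In differentiated cells 19 of the 28 were at least 1.5-fold lower under the knockdown than in the differentiated control, beside 8.12% of all genes. In Yap1_OE 16 of the 28 were at least 1.5-fold above BirA, beside 4.07%. Together, 9 genes met all 3 conditions, where 35 of all genes (0.298%) did: D630045M09Rik, Peg10, Myl9, Capn2, Cyr61, Fam13c, 2200002D01Rik, Amotl2 and Wwc2. Map6 and Dnmt3l met the conditions on the knockout-labelled libraries and the differentiated knockdown but not the one on overexpression, with log2 ratios of -0.10 and 0.35 in Yap1_OE. Both libraries labelled as knockouts were set against the same ESC library, and those conditions are not independent of each other. The titles of both knockdown libraries carry the label KD1, and no source used here says whether they share a reagent. If they do, other effects of that reagent and effects of less Yap1 cannot be told apart in the differentiated pair.

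Of the 24 genes at least 2-fold higher, 7 were at least 1.5-fold above ESC in both libraries labelled as knockouts, beside 2.36% of all genes. These were Vax2, Vax2os, Grin1, Rnaset2b, Trh, Zic2 and Stmn3. By a 2-fold limit, 2 of the 24 (Vax2 and Vax2os) were above ESC in both, beside 0.145% of all genes. By that limit 3 of the 24 (Mt4, 1700124L16Rik and Tuba3a) were below ESC in both, beside 0.740%. In differentiated cells 14 of the 24 were at least 1.5-fold higher under the knockdown, beside 5.08%. In Yap1_OE 11 were at least 1.5-fold below BirA, beside 7.77%. All 3 conditions were met by 4 genes, Vax2, Vax2os, Trh and Stmn3, where 18 of all genes (0.153%) met them. Since reads of Vax2 and Vax2os cannot be told apart, these counts may hold the same reads under both names. Rnaset2b has close copies. The heat map of log2 ratios shows both groups gene by gene.

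**Figure D3:**
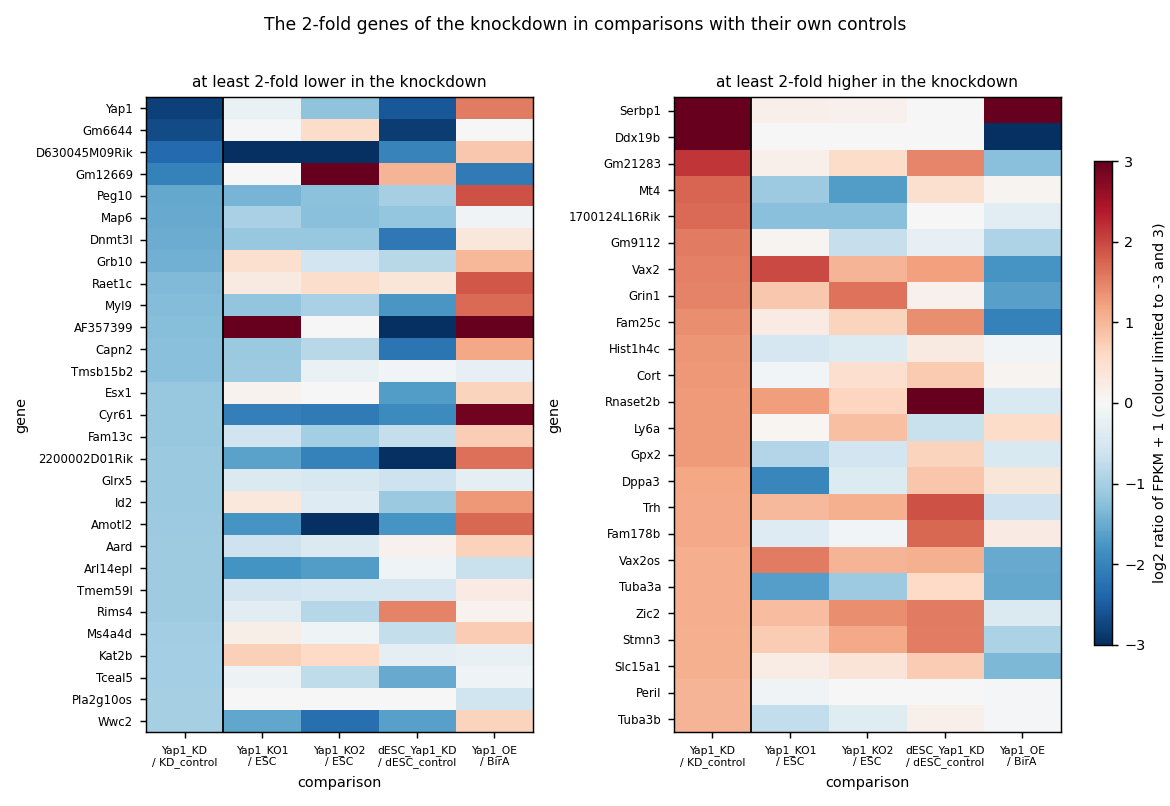
Colour gives the log2 ratio of FPKM + 1 for the 29 lower genes (left) and the 24 higher genes (right), 1 row per gene, in the knockdown (left of the black line) and in 4 comparisons with their own controls; colours stop at -3 and 3. The rows of D630045M09Rik, Peg10, Cyr61, Amotl2 and Wwc2 are blue in the knockdown, the differentiated knockdown and both knockout-labelled libraries and red in Yap1_OE, while Kat2b, Tuba3a and Mt4 have opposite colours in the knockdown and in the libraries labelled as knockouts.

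Some genes went the other way. Kat2b was at least 2-fold lower in the knockdown and at least 1.5-fold higher in both libraries labelled as knockouts. Tuba3a and Mt4 were at least 2-fold higher in the knockdown and at least 2-fold lower in both, and 1700124L16Rik was listed at 0 in KD_control and in both. Whether a gene's change differed between the knockdown arm and the knockout-labelled arm was tested with limma as an interaction, with 1 residual degree of freedom. Over 12002 genes 1 passed at an adjusted p under 0.05 (Benjamini-Hochberg), Serbp1, the gene listed at 0 in the control, and 1923 had an unadjusted p under 0.05. The adjusted p was 0.258 for each of Kat2b, Tuba3a and Mt4 (limma). The spread in this test comes from Yap1_KO1 and Yap1_KO2 alone, and the knockdown arm, with 1 library on each side, is assumed to vary like them, so neither a pass nor a failure shows whether the arms differ. Across 8274 genes with a mean level of at least 5 FPKM, the log2 ratios of the knockdown had a Spearman correlation of -0.136 with those of Yap1_KO1, -0.156 with Yap1_KO2, -0.335 with Yap1_OE and 0.283 with the differentiated knockdown. These correlations are across genes, which are not independent replicates, and GC content moves with them. The log2 ratio of the knockdown had a Spearman correlation of 0.166 with the GC content of the transcript (11685 genes), and those of Yap1_KO1 and Yap1_KO2 had -0.577 and -0.584. The part of GC content in the correlations was not tested.

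A test with residual spread was made over the knockdown pair and the knockout-labelled arm together. limma was fitted to log2(FPKM + 1) of the 5 libraries with a term for the arm and a term for the label (knockdown or knockout against control), which leaves 2 residual degrees of freedom. They hold the spread of the knockout-labelled pair and the difference of effects between the arms, and no spread between knockdown cultures. After Benjamini-Hochberg adjustment over 12002 genes, 3 genes fell and 1 rose with that label (0.025% and 0.00833% of the genes tested), and all 4 are among the 2-fold genes of the knockdown. D630045M09Rik fell, with a log2 change of -3.30 (SE 0.33, limma adjusted p = 0.0146), and was lower in 3 of 3 libraries. Peg10 changed by -1.40 (SE 0.14, limma adjusted p = 0.0146) and Dnmt3l by -1.29 (SE 0.13, limma adjusted p = 0.0146), each lower in 3 of 3. Trh rose by 1.07 (SE 0.12, limma adjusted p = 0.0257), higher in 3 of 3. An unadjusted p under 0.05 was reached by 912 genes (7.6%), and by 33 of the 53 2-fold genes of the knockdown, 19 lower and 14 higher. The fit holds the knockdown pair that chose the 2-fold genes. This count and the place of the 4 called genes among them are therefore a description and support nothing.

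Cyr61, Amotl2 and Wwc2 did not pass this joint test with all 5 libraries. Cyr61 had a log2 change of -1.68 (SE 0.23, limma adjusted p = 0.0883), Amotl2 of -1.85 (SE 0.39, limma adjusted p = 0.234) and Wwc2 of -1.52 (SE 0.26, limma adjusted p = 0.129). Yap1 itself had -1.60 (SE 0.43, limma adjusted p = 0.378), with the libraries labelled as knockouts at 87.6% and 42.2% of ESC. The call of D630045M09Rik was lost with a pseudocount of 0.1 (adjusted p = 0.132 by limma) and with the GC trend removed (0.0741). All 4 calls were lost without the low-value filter, with small RNA rows kept, without the mean-variance trend and with the differentiated pair added. A fit without Yap1_KO1 or without Yap1_KO2 has 1 library in every group and 1 residual degree of freedom. That degree of freedom is the difference of effects between the arms. Such a fit holds no replicate, so its calls are not given.

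Outside these groups, the knockdown library resembled its control in the genes that define ES cells. The core factors Pou5f1 (Oct4) at 1138 and 1261 FPKM, Sox2 at 317 and 325 and Nanog at 266 and 318 were within 1.5-fold, as were all 12 measured core pluripotency genes. Their median log2 ratio was 0.01. Of 16 naive pluripotency genes 1 was at least 2-fold higher (Dppa3) and 0 at least 1.5-fold lower. Klf2 was at 149 and 218 FPKM, while Klf4 was at 82.5 and 63.4 and Tfcp2l1 at 55.9 and 40.5. The list medians were 0.15 for naive genes and -0.18 for 12 formative and primed epiblast genes, in which Dnmt3b and Pou3f1 (3.60 and 1.91 FPKM) were at least 1.5-fold lower and Zic2 2-fold higher. Set against ESC or BirA in place of KD_control, the core and naive medians were negative, at -0.50 and -0.46 for core genes and -0.50 and -0.19 for naive genes.

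Signalling pathways gave small differences. In the FGF and ERK feedback list, 13 of 17 genes were below the control, where 48.5% of all genes were, with a median of -0.24. The lowest was Fgf15 (7.93 and 3.80 FPKM), and the ERK phosphatase Dusp6 was at 20.05 and 13.8, the ETS factor Etv5 at 60.7 and 42.2 and the feedback inhibitor Spry1 at 6.37 and 4.35. The ligand Fgf4 was at 81.5 and 102. In the Nodal, TGF-beta and BMP list 1 of 15 genes was at least 2-fold lower (Id2), while Id1 (28.0 and 30.6 FPKM) and Id3 (14.7 and 15.3) were close to the control. The Nodal inhibitor Lefty2 was at 17.8 and 32.9 FPKM. In the Wnt list 0 of 10 genes were at least 2-fold apart, and the Wnt-inactivating enzyme Notum was at 7.12 and 11.4.

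Genes of growth, death and metabolism gave no member at least 2-fold apart in any of several lists. Of 24 cell cycle genes, 20 apoptosis genes, 17 p53 targets and 22 glycolysis and hypoxia genes, 0 were at least 1.5-fold apart, with medians of -0.02, 0.01, 0.01 and -0.02. For Ccnd1, a cyclin, the values were 27.2 and 21.8 FPKM. Of 18 measured nuclear genes of the respiratory chain 17 were above the control, where 6057 of all 11755 genes were, with 0 of them at least 1.5-fold higher and a median of 0.21. For example Sdhb was at 166 and 219 FPKM and Cox8a at 747 and 965. Interferon genes had 2 of 16 at least 1.5-fold higher, Oas1a (5.51 and 10.2 FPKM) and Ifitm1 (246 and 415), and 0 lower, beside 1.86% and 1.71% of all genes. Replication-dependent histones, whose RNA lacks a poly(A) tail, had 1 of 19 at least 1.5-fold apart (Hist1h4c). The plot of lists shows every measured member with the median of each list. Lists are described by these counts and medians only, and no set was tested. All lists were chosen with earlier results of these data known, so a count beside the share of all genes supports nothing.

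**Figure D4:**
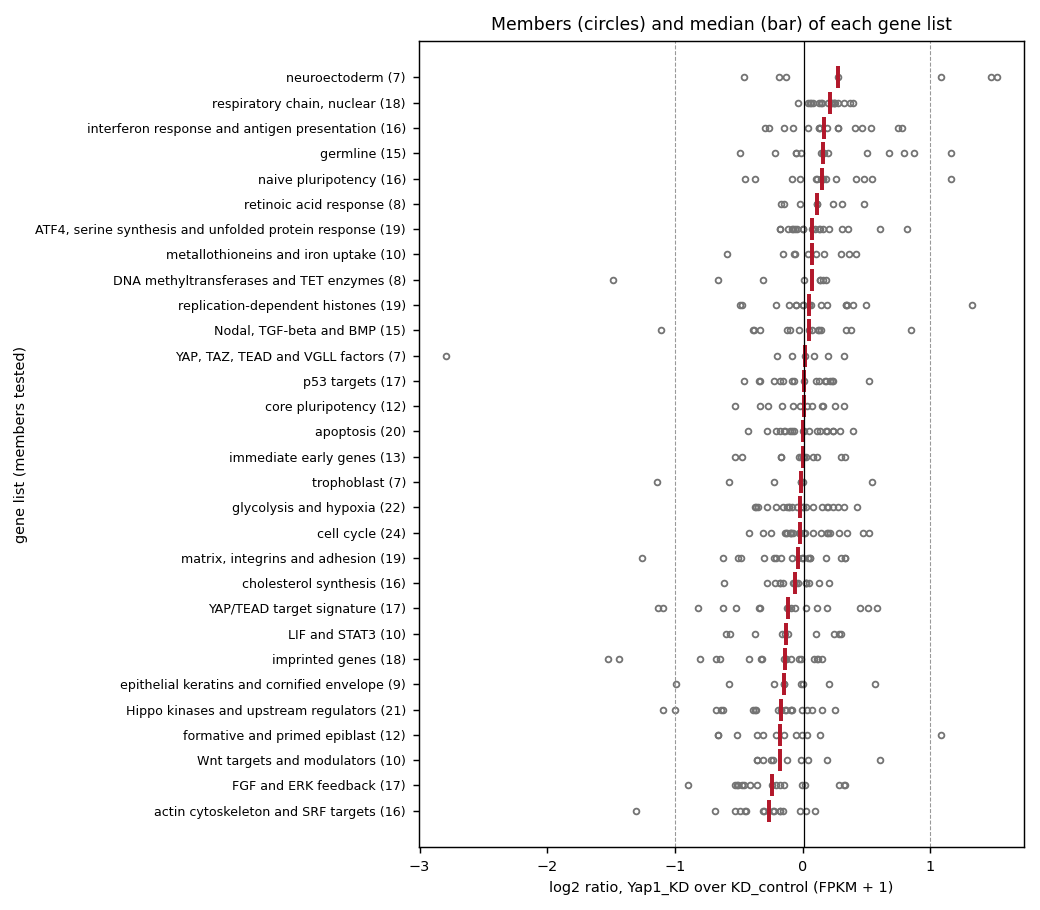
Each circle is 1 measured gene and the red bar the median of its list, on the log2 ratio of Yap1_KD over KD_control; the solid line is the median of all 11755 genes and dashed lines mark a 2-fold difference. Lists with 5 or more measured members are shown. Their medians run from -0.26 for actin cytoskeleton and SRF targets to 0.28 for neuroectoderm, and most circles lie between the dashed lines.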

How the data were processed

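Polyadenylated RNA of 9 libraries was described by 1 deposited table of FPKM values per gene, made by the authors with TopHat2 and Cuffdiff on the mouse build mm9, per the submitters' processing notes. Tool versions, annotation, read length and strandedness were not given in the sources used here. Its 23277 rows include 4746 blank ones and 27 with date-like symbols. Of the 18504 genes left, 168 small RNA rows were removed by symbol; they held 15.9% to 23.6% of the summed FPKM per library. A 0 can be a failed estimate in such a table, and genes listed at 0 in 1 library of the pair are given without a ratio.

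Ratios used log2(FPKM + 1) and genes at 1 FPKM or more in either library, or in at least 1 of the 5 libraries of the limma fit. limma 3.58.1 in R 4.3.3 used a trend of variance on mean level and an adjusted p (Benjamini-Hochberg) under 0.05. It was also run on simulated data with the spread of the knockout-labelled pair and equal effects in both arms. That run cannot show whether the knockdown arm varies or responds like the knockout-labelled arm. Depth came from the steps between values under 1 FPKM. The scale was set by 431 genes with 1 annotated transcript of at least 3000 nt, where 176 of 1189 values stood at 1 common unit. Fragment numbers behind the 95% intervals are estimates from it and from transcript length; they were used in no test of conditions. The genome in hand, GRCm38, is another build than mm9, and served only for transcript lengths, GC content and promoters.

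The genes compared, the 34 gene lists, tests and alternatives were chosen with earlier results of these data known. Named genes are all 2-fold genes, Yap1, Wwtr1, the measured signature genes, called genes, and up to 4 members of each list with the largest ratio at 5 FPKM or more; other members named in a list were chosen after their values were seen. Alternatives were other pseudocounts, filters, centring, GC content, another control library, small RNA rows and left-out libraries.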

Additional observations from a re-analysis of the deposited data

Results flagged for a closer look

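Serbp1, an mRNA-binding protein, had a difference of log2 change of -7.65 in the knockout-labelled arm minus the knockdown (limma interaction, SE 0.14, adjusted p = 0.00122). That spread comes from the 2 knockout-labelled libraries alone, and the knockdown arm has no replicate, so the p cannot show a difference between the arms. It was listed at 0 in KD_control and at 220.1 FPKM in the knockdown, beside 289, 321 and 316 FPKM in ESC, Yap1_KO1 and Yap1_KO2, so the difference rests on 1 value of 0. The pseudogene Gm12669 was lower in the knockdown of undifferentiated cells (log2 ratio -2.02) and higher in that of differentiated cells (log2 ratio 1.03, from 0.00450 to 1.05 FPKM). The difference was not tested. Rims4 was lower in undifferentiated cells (-1.06, from 2.82 to 0.833 FPKM) and higher in differentiated cells (1.499, from 2.18 to 7.99 FPKM), and this difference was not tested either.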

How the results depend on the processing

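The 24 higher and 29 lower genes of the knockdown were 96 and 77 with a pseudocount of 0.1 and 6 and 9 with a pseudocount of 5. With a filter at 5 FPKM 18 and 19 remained, with small RNA rows kept 60 and 60 were counted, and with the GC trend removed 26 and 29, of which 23 and 27 were the same genes. Without genes listed at 0 the counts were 21 and 28, and centring and the removal of the filter left 24 and 29. ESC in place of KD_control gave 462 and 347 genes (12 and 19 shared), and BirA gave 194 and 106 (11 and 18 shared). Among the 2-fold genes at 1 FPKM or more in either library, log2 ratios against ESC changed sign for Gm12669 (1.07), AF357399 (6.91), Ly6a (-0.18), Rnaset2b (-0.0053), Hist1h4c (-0.53) and Serbp1 (-0.39). Ms4a4d, under 1 FPKM in both, was at 0.207 FPKM in the knockdown and 0.101 in ESC. Against BirA the ratios of 2-fold genes changed sign for AF357399 (6.91), Rnaset2b (-1.52) and Hist1h4c (-0.21). Other named genes changed sign as well. For example, Klf2 was at 149 FPKM in KD_control and 218 in the knockdown, beside 239 in ESC and 283 in BirA. Lefty2 was at 17.8 and 32.9 FPKM, beside 49.3 in ESC and 45.4 in BirA. The cause was not tested.

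The joint limma fit called 1 gene higher and 3 lower. It called 0 and 0 without the filter (1184 genes at an unadjusted p under 0.05), 0 and 0 with the differentiated pair added (1146) and 0 and 0 without the mean-variance trend (912). With small RNA rows kept it called 0 higher and 2 lower, 0 of them among the 4 genes. Leaving out 1 knockout-labelled library gave 13 to 29 higher and 44 to 66 lower genes, with the 4 genes included each time. Over the other alternatives the adjusted p by limma ran from 0.00593 to 0.676 for D630045M09Rik. It ran from 0.0127 to 0.479 for Peg10 and for Dnmt3l, and from 0.0141 to 0.479 for Trh. No paired analysis was possible because KD_control, Yap1_KD and ESC are 1 library each, so the groups share fewer than 2 replicate numbers. Depth limits genes near 1 FPKM, where a 2 kb transcript stood for 36.7 fragments in the knockdown, and 1 library per group leaves the spread between cultures unmeasured.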
